A study of Mus musculus with 23 samples.

Results

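Most of the genes described here are better known from hormone-secreting, nerve, epithelial or mesenchymal cells than from lymphocytes. All were followed through every array of a mouse study of the chromatin regulators Snf5 and Ezh2. The 9 genes are Gcg, Gnai1, Gng3, Pmp22, Nectin3, Gstt3, Galnt3, Cd109 and Foxf2. They were chosen by their large rises in Snf5-deficient lymphomas over wild-type CD8+ T cells, so their values in that contrast are given as a description with no test. A probe set, the group of short probes that reports one transcript, was taken for a gene when the platform annotation gave that symbol and no other. This gave 17 of 22626 probe sets, and 9 of the 12393 genes measured through a probe set of their own.

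The study hybridised RNA to 23 Affymetrix mouse arrays in 6 groups. The tumour group held 5 arrays of purified CD8+ cells from lymphomas that lack Snf5, and its control group 6 arrays of CD8+ T cells purified from wild-type animals, all from mice 10 to 15 weeks old. Mouse embryonic fibroblasts (MEFs) of E13.5 were Ezh2-deficient, deficient in Snf5 and Ezh2 together, or wild type, with 3 arrays per mutant line and 3 wild-type ones labelled as its control. The wild-type arrays of both MEF sets proved to be the same 3 hybridisations. This left 9 distinct MEF arrays, and the mutant lines share their controls. The inactivation in the MEFs was conditional, but the sources used here name neither the driver of the deletion nor the strain, the age of each tumour or the method of purification.

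The Smarcb1 gene encodes Snf5, a subunit of the SWI/SNF complex, which moves nucleosomes and opens chromatin. Ezh2 is the methyltransferase of the Polycomb complex PRC2, which keeps many genes of other lineages silent through methylation of histone H3. Gcg encodes preproglucagon, the precursor of glucagon in pancreatic alpha cells and of GLP hormones in the gut. Gnai1 encodes an inhibitory alpha subunit of the G proteins that relay receptor signals to adenylyl cyclase, and Gng3 a gamma subunit best known from brain. Pmp22 encodes a membrane protein of peripheral myelin. Nectin3 encodes an adhesion receptor of cell junctions. Gstt3 encodes a theta-class glutathione transferase, an enzyme of detoxification. Galnt3 encodes an enzyme that starts mucin-type O-glycosylation. Cd109 encodes a surface protein of the thioester family that binds TGF-beta, and Foxf2 a forkhead transcription factor of embryonic mesenchyme.

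The promoter sequences of the set show how unlike these genes are in base composition. RefSeq windows of build GRCm38.p6, from 250 bases before to 50 bases after a transcription start, were matched by symbol for 8 of the 9 genes, with 12 windows. Cd109 is named only. The 250 bases before the start are printed for the glucagon gene and for both G protein genes, each 5′ to 3′ on the minus strand that the gene is read from, with every CG dinucleotide in capitals. They cover chr2:62483654-62483903 for Gcg, chr5:18360414-18360663 for Gnai1 and chr19:8839247-8839496 for Gng3.
Gcg: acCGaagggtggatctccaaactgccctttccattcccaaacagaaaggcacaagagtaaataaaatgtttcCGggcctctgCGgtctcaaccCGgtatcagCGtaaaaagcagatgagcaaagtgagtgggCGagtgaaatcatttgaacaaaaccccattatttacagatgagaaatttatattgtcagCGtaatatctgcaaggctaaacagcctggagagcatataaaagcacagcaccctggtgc
Gnai1: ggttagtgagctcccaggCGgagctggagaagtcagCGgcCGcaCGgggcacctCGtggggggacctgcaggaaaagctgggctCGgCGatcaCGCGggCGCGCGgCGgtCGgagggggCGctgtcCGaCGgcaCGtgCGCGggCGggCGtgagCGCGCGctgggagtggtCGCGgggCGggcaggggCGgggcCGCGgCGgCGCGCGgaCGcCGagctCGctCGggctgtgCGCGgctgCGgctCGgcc
Gng3: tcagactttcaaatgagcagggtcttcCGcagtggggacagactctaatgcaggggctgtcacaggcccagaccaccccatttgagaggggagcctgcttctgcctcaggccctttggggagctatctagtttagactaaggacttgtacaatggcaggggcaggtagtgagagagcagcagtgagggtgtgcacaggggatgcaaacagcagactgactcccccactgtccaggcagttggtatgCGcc
The whole Gnai1 window held 53 CG dinucleotides, the Gcg window 7 and the Gng3 window 2, against a median of 7 and quartiles of 3 and 20 over the 32851 windows of the table. Among the others, the Galnt3 window held 41, the Nectin3 window 40, the Foxf2 window 27 and the Gstt3 windows 3 each. The windows of the 4 Pmp22 starts held 3, 18, 20 and 30. The motif TATAAA, searched on both strands, was found in the Gcg window, with 18 bases between it and the start, and in no other window of the set. It occurred in 13.6% of all windows. A match to these letters is a description of the sequence and not a shown binding site.

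Before the values, the labelled cells were checked. Smarcb1 was lower in the lymphomas (log2 difference -3.65, SE 0.591, limma adjusted p = 0.00244) and in the double-mutant MEFs (-2.46 with SE 0.0760 and adjusted p = 1.01e-07). Ezh2 was lower in both mutant MEF lines (-2.18 and -1.66, adjusted p = 9.32e-06 and 8.99e-06), and it was higher in the lymphomas (1.57, adjusted p = 0.0133). The sources used here do not say whether these probes lie inside the deleted part, and a probe outside it would check nothing. The CD8 co-receptor gene Cd8a read 13.12, 13.33, 13.52, 13.55 and 13.21 in the lymphomas, against 13.32 to 13.64 on wild-type CD8 arrays 2 to 5 and 10.73 and 10.59 on wild-type arrays 1 and 6. All array values are log2 of the deposited intensity unless stated otherwise.

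Wild-type CD8 arrays 1 and 6 stood apart from the other 4 of their group. The summed linear intensity of the 11 measured T cell markers was 58446 to 87979 in the lymphomas, against 74757 to 104316 on wild-type arrays 2 to 5 and 41984 and 35021 on wild-type arrays 1 and 6. The sum of 13 macrophage and myeloid markers was 7089 to 32882 in the lymphomas, against 9955 to 12450 on wild-type arrays 2 to 5 and 65979 and 66034 on wild-type arrays 1 and 6. The sum of 9 B cell markers was 2962 to 17704 in the lymphomas, against 6606 to 18906 on wild-type arrays 2 to 5 and 42338 and 42523 on wild-type arrays 1 and 6. The cells on those 2 wild-type arrays therefore carried less T cell and more myeloid and B cell marker signal than those on the other 4 wild-type arrays, and the differences of the 9 genes and the counts of called genes in the lymphomas are given below with and without them. In such bulk samples fewer cells of a type and less RNA per cell cannot be told apart. The part of these markers in the levels of the 9 genes was not tested.

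**Figure D1:**
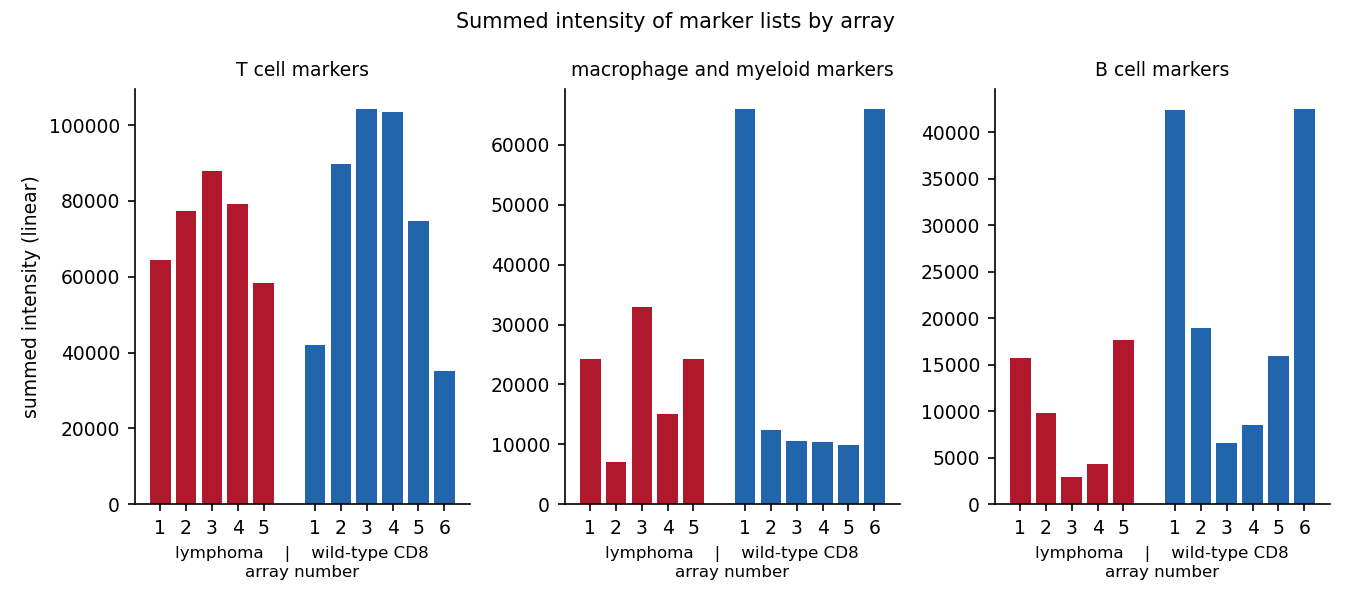
Summed linear intensity of the T cell, macrophage and myeloid, and B cell marker lists on each lymphoma array (red, 1 to 5) and each wild-type CD8 array (blue, 1 to 6). Wild-type arrays 1 and 6 have the lowest T cell sums, 41984 and 35021, and the highest myeloid and B cell sums.

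In the lymphomas the brightest probe sets of 8 of the 9 genes lay above at least 59.5% of the probe sets of every array, and that of Foxf2 above 44.4% to 56.7%. On wild-type arrays 2 to 5 the 9 lay above 2.3% to 61.7%, the highest being Gcg on array 4. On those arrays Gstt3 (3.88 to 4.18), Nectin3 (3.54 to 4.22) and Foxf2 (3.45 to 4.15) lay near the floor of the scale. So did Gnai1 except on array 4. The size of the folds of these genes is therefore uncertain, above all without wild-type arrays 1 and 6. All 5 lymphomas read above all 6 wild-type arrays for 15 of the 17 probe sets, a count that the choice of genes fixes in part and that stands beside 6.58% of all probe sets. The median log2 difference over the 17 probe sets was 4.87, or 5.75 without wild-type arrays 1 and 6, beside -0.07 and -0.12 over all probe sets. The differences ranked 1 to 5 of the 12393 genes for Gcg, Gnai1, Pmp22, Gstt3 and Nectin3 in that order, 12 for Cd109, 14 for Gng3, 18 for Galnt3 and 101 for Foxf2. The set is not the whole top of the list, since 92 other genes had a difference at least as large as that of Foxf2. The genes just above and just below Foxf2 in that order had differences of 3.32 and 3.27, beside its own 3.30.

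Gcg, the glucagon gene, had the largest difference. It read 13.45, 12.54, 13.88, 12.56 and 13.19 in lymphomas 1 to 5, and in the wild-type CD8 cells it ran from 3.73 to 9.49 with a median of 5.35. The group means were 13.12 ± 0.578 (SD, n = 5) in the lymphomas and 5.86 ± 2.11 (n = 6) in the wild-type cells, a log2 difference of 7.26, or 154-fold. Wild-type array 4, with 9.49, was the high one, at 7.54% of the linear lymphoma mean, while arrays 1 and 6 read 6.09 and 6.81. Without arrays 1 and 6 the difference was 7.56, and without array 4 alone it was 7.99. Wild-type arrays 2, 3 and 5 read 4.44, 3.73 and 4.60, below arrays 1 and 6. Gcg was thus the exception in the set through array 4 alone, the wild-type array that arrays 1 and 6 did not exceed.

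The alpha subunit gene Gnai1 was measured by 3 probe sets. The brightest, 1454959_s_at, read 12.47, 12.77, 12.54, 12.20 and 12.50 in the lymphomas, and in the wild-type cells it ran from 3.56 to 10.65 with a median of 4.71. Arrays 1 and 6 gave its 2 highest wild-type values, 10.32 and 10.65, and the other 4 lay at or below 5.48. The difference was 6.20, or 73.6-fold, and without arrays 1 and 6 it was 8.30, or 314-fold, which placed Gnai1 first of all genes. That fold rests on wild-type values of 3.56 to 5.48, most of them near the floor of the scale. Probe set 1434440_at differed by 5.63 and 1427510_at by 3.76 (7.05 and 4.32 without arrays 1 and 6), and for both every lymphoma lay above every wild-type array. The probe sets thus had the same direction and differed in size.

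Gng3, the gamma subunit gene, read 12.70, 12.56, 12.43, 12.22 and 12.46 in the lymphomas, and it ran from 5.32 to 10.75 with a median of 6.77 in the wild-type cells. The means were 12.47 ± 0.176 and 7.52 ± 2.37, a difference of 4.95 (30.9-fold), and 6.41 (84.9-fold) without wild-type arrays 1 and 6. The lymphomas spread over only 0.48 on the log2 scale, while wild-type arrays 1 and 6 read 10.75 and 10.12, at 30.2% and 19.4% of the linear lymphoma mean.

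Pmp22, the peripheral myelin gene, varied most between tumours among the brightest probe sets of the 9 genes. It read 13.22, 11.71, 12.56, 10.34 and 13.01 in lymphomas 1 to 5, and in the wild-type cells it ran from 4.85 to 8.56 with a median of 5.19. Its lymphoma range of 2.88 amounts to 7.34-fold, with lymphoma 4 the low one, and even that array lay 1.78 above the highest wild-type value. The difference of means was 6.00 (64.1-fold), or 7.11 (138-fold) without arrays 1 and 6.

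Gstt3, the theta-class glutathione transferase gene, showed the reverse, with almost the same level in every tumour. It read 11.88, 12.01, 12.06, 11.76 and 11.96 in the lymphomas, a range of 0.29, and in the wild-type cells it ran from 3.88 to 10.01 with a median of 4.13. Arrays 1 and 6 read 10.01 and 9.76, and the 4 others lay between 3.88 and 4.18. The difference was 5.93 (61.1-fold) and, without arrays 1 and 6, 7.88 (235-fold).

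**Figure D2:**
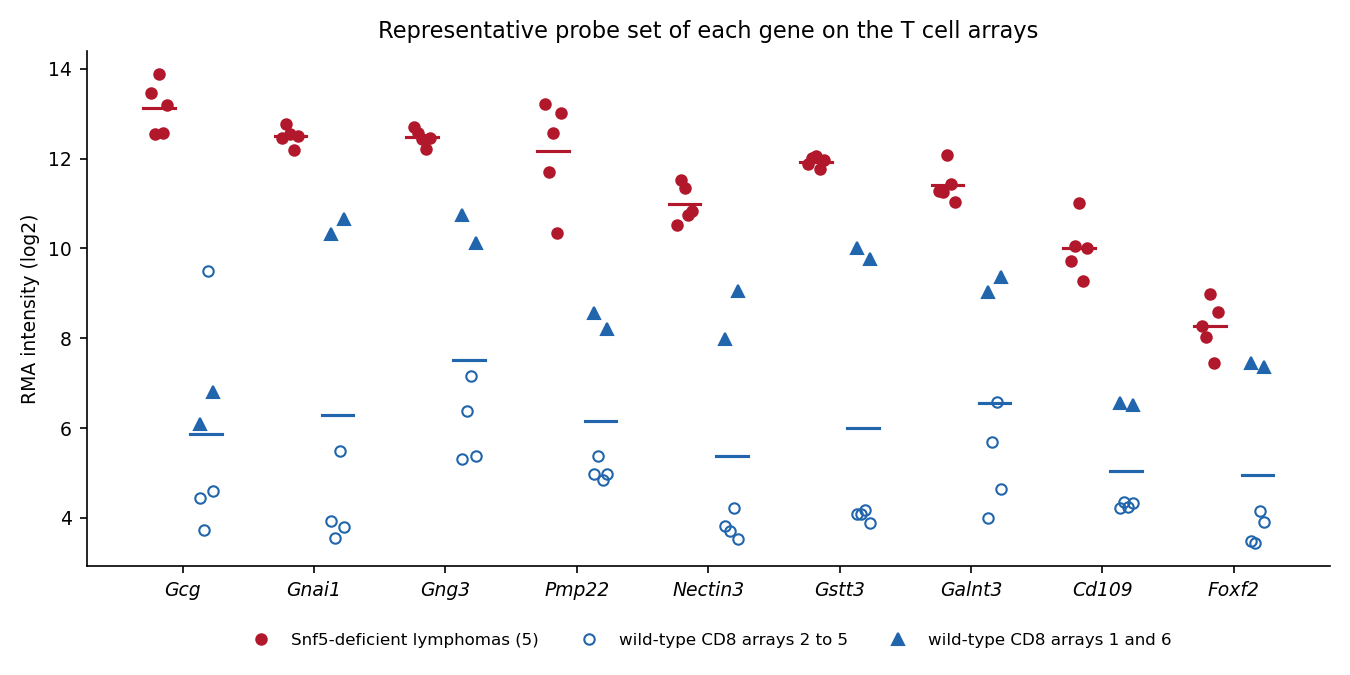
RMA intensity (log2) of the brightest probe set of each gene on the 5 lymphoma arrays (red points) and the 6 wild-type CD8 arrays (blue), with horizontal lines for the group means. Every lymphoma lies above every wild-type array, by only 0.01 for Foxf2. Wild-type arrays 1 and 6 (triangles) lie between the lymphomas and the other wild-type arrays for every gene except Gcg. For Gcg, wild-type array 4 lies above arrays 1 and 6.

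Nectin3, the junction receptor gene, was measured by 5 probe sets. The brightest, 1448673_at, read 10.53, 11.53, 11.35, 10.75 and 10.84 in the lymphomas, and it ran from 3.54 to 9.06 with a median of 4.02 in the wild-type cells. Its difference was 5.61 (48.9-fold), or 7.18 (145-fold) without arrays 1 and 6, which read 7.98 and 9.06. Probe sets 1423331_a_at and 1417319_at differed by 4.87 and 3.68 (5.75 and 4.52 without those arrays), with no overlap between the groups. The 2 dimmest, 1421133_at and 1421132_at, overlapped: the first read 5.08 to 6.61 in the lymphomas against 4.53 to 5.09 in the wild-type cells, and the second 4.23 to 5.95 in the lymphomas against 3.59 to 4.35 in the wild-type cells. Their differences were 0.89 and 0.95, or 0.89 and 0.83 without arrays 1 and 6. Lymphoma 2 gave the highest value of all 5 Nectin3 probe sets.

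Galnt3, the O-glycosylation gene, was measured by 3 probe sets, none with overlapping groups. The brightest, 1417588_at, read 11.28, 11.26, 12.08, 11.44 and 11.03 in the lymphomas, and it ran from 4.01 to 9.37 with a median of 6.14 in the wild-type cells. It differed by 4.86 (29.0-fold), or 6.18 (72.6-fold) without arrays 1 and 6. Probe sets 1417589_at and 1427749_at differed by 4.13 and 2.54 (4.43 and 2.70 without those arrays), and lymphoma 3 was highest on all 3.

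Cd109, the thioester protein gene, read 9.73, 10.05, 11.02, 9.27 and 10.00 in the lymphomas, and it ran from 4.22 to 6.57 with a median of 4.35 in the wild-type cells. Wild-type arrays 2 to 5 lay within 4.22 to 4.36, and arrays 1 and 6 read 6.57 and 6.52, at 8.46% and 8.15% of the linear lymphoma mean. The difference was 4.97 (31.4-fold), or 5.72 (52.9-fold) without them.

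Foxf2, the mesenchymal transcription factor gene, was the weakest of the set. It read 8.27, 8.03, 8.98, 7.46 and 8.58 in the lymphomas, and it ran from 3.45 to 7.45 with a median of 4.03 in the wild-type cells. Lymphoma 4 exceeded wild-type array 1 by only 0.01, and arrays 1 and 6 stood at 53.3% and 49.8% of the linear lymphoma mean. The difference was 3.30 (9.86-fold), or 4.52 (22.9-fold) without arrays 1 and 6, where the lowest lymphoma lay 3.30 above the highest wild-type array.

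The tumours did not rank alike for all genes. Lymphoma 3 was the highest for 5 of the 9 brightest probe sets, lymphoma 1 for 2 and lymphoma 2 for 2. Lymphoma 4 was the lowest for 6 of the 9. Leaving out 1 array at a time gave differences from 3.00 for Foxf2 to 7.99 for Gcg. The genes were chosen as large rises in this contrast, so that all stayed above 0 is no test of them. The fold of 5 genes moved by over 1.5 times without a single wild-type array. The log2 difference was 7.99 for Gcg without array 4, 5.60 for Gng3 without array 1 and 6.35 for Nectin3 without array 6. It was 7.01 for Gnai1 and 6.73 for Gstt3 without array 1, and 7.07 for Gnai1 and 6.69 for Gstt3 without array 6.

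Many other genes also read higher on wild-type arrays 1 and 6 than on wild-type arrays 2 to 5. Both arrays exceeded all of wild-type arrays 2 to 5 for 13 of the 17 probe sets and for 8 of the 9 brightest ones. A further 262 genes were at least 3 log2 units higher in the lymphomas than on wild-type arrays 2 to 5. Both arrays exceeded all of arrays 2 to 5 for 220 of them, or 84.0%, and for 17.9% of all genes. Choosing the 262 by low values on arrays 2 to 5 favours this, so the 84.0% is a description and not a test. On a scale where 0% is the mean of wild-type arrays 2 to 5 and 100% the lymphoma mean, the median position of array 1 was 61.4% for the 9 genes and 73.7% for the 262 others. For array 6 these medians were 66.9% and 73.1%. Array 1 lay above the lymphoma mean for 25.2% of the others and array 6 for 26.0%. None of the 9 genes did so, as the rule that chose them favours.

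**Figure D3:**
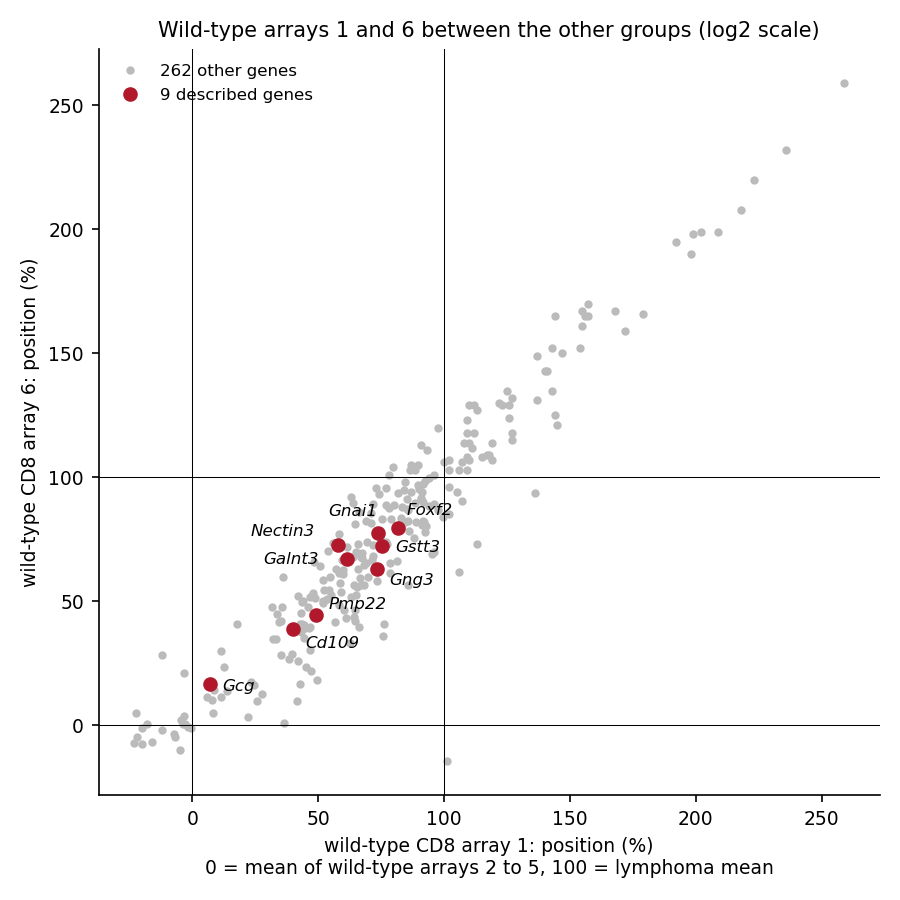
Position of wild-type CD8 array 1 (x axis) and array 6 (y axis) on the log2 scale between the mean of wild-type arrays 2 to 5 (0%) and the lymphoma mean (100%), for the 9 genes (red, named) and for 262 other genes at least 3 log2 units higher in the lymphomas than on wild-type arrays 2 to 5 (grey). Gcg lies at 7.01% for array 1 and 16.5% for array 6, with its 0% mean raised by the high value of wild-type array 4. The other 8 genes lie among the grey points below 100%.

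The MEF arrays showed the level of these genes in a non-lymphoid cell and their differences between mutant and wild-type MEFs. The strain is not named, so genotype and the background of each line cannot be told apart. The MEF sets and the T cell arrays were summarised separately, so no level was tested across them, and each mutant was compared with the wild-type group of its own set. Within their arrays, Pmp22, Cd109, Nectin3 and Gnai1 stood high in all MEF groups: the brightest probe set of each lay above at least 64.8% of the probe sets of its array. Gcg stood at the bottom, above at most 4.1% of the probe sets of any MEF array, with 3.75 to 4.00 in the Ezh2-deficient MEFs against 3.80 to 3.93 in their wild-type set and, in the second set, 3.76 to 3.94 in the mutants against 3.81 to 3.94 in the controls. These Gcg values lay near the floor of the scale, and the files used here hold no detection calls.

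In MEFs deficient in Snf5 and Ezh2, 3 of the 9 genes rose and 3 fell, beside 13.2% and 14.3% of all genes. By probe set, 3 of 17 were called higher and 7 lower, beside 12.1% and 13.8% of all probe sets at an adjusted p below 0.05 in limma. The 7 lower ones belong to only 3 genes, Gnai1, Nectin3 and Galnt3. Pmp22 read 10.43, 10.66 and 10.74 in the mutant cells, against 9.80, 9.96 and 9.71 in their wild-type set (log2 difference 0.79, SE 0.0953, adjusted p = 2.23e-04). Cd109 read 10.48, 10.59 and 10.51, against 9.69, 9.94 and 9.75 in the wild-type set (0.73, SE 0.0819, adjusted p = 1.43e-04). Gstt3 read 7.55, 7.63 and 7.47, against 6.85, 6.86 and 6.97 in the wild-type set (0.65, SE 0.0612, adjusted p = 4.94e-05). In all 3 cases every mutant array lay above every wild-type array, and the changes were 1.73-fold, 1.66-fold and 1.57-fold.

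Gnai1 and Nectin3 fell in the same MEFs. Gnai1 probe set 1454959_s_at read 8.60, 8.49 and 8.29 in the mutant cells, against 9.19, 9.05 and 9.16 in the wild-type set (-0.67, SE 0.0834, adjusted p = 2.69e-04). Its other probe sets, 1434440_at and 1427510_at, fell by 0.50 and fell by 0.39 (adjusted p = 0.00131 and 0.00263), so all 3 moved the same way. Nectin3 probe set 1448673_at read 8.93, 8.90 and 8.83, against 9.51, 9.49 and 9.46 in the wild-type set (-0.60, SE 0.0760, adjusted p = 2.96e-04), and 1423331_a_at fell by 0.70 (adjusted p = 1.96e-04). The direction of both genes in these MEFs is thus opposite to that of their difference in the lymphomas.

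The remaining calls in the Snf5 Ezh2-deficient MEFs were weaker. Nectin3 probe set 1417319_at differed by -0.35 (adjusted p = 0.0186), and the call was lost without wild-type array 2 or mutant array 2 or 3, with adjusted p up to 0.0734. Galnt3 probe set 1417588_at read 5.23, 5.30 and 5.25, against 5.61, 5.50 and 5.78 in the wild-type set (-0.37, adjusted p = 0.0343), and the call was lost without any 1 of wild-type arrays 1 and 3 or of the 3 mutant arrays, with adjusted p up to 0.134. Nectin3 probe sets 1421133_at and 1421132_at differed by -0.17 and -0.04 and Galnt3 probe sets 1417589_at and 1427749_at by -0.13 and -0.07, none of them called. Gng3 (0.03, adjusted p = 0.771), Foxf2 (-0.11, adjusted p = 0.466) and Gcg (0.01, adjusted p = 0.954) did not pass the test either.

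**Figure D4:**
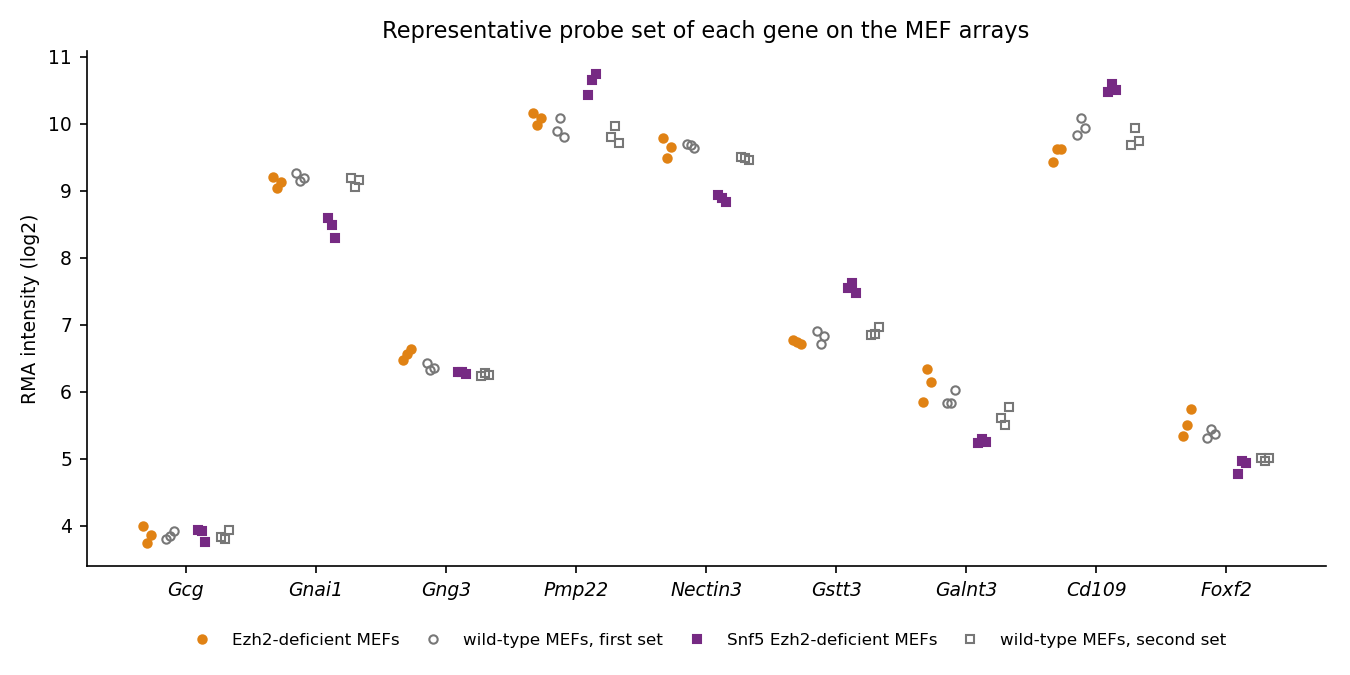
RMA intensity (log2) of the brightest probe set of each gene on every MEF array, with each mutant group left of the wild-type arrays of its own set. The Snf5 Ezh2-deficient arrays (purple squares) lie above their wild-type set for Pmp22, Gstt3 and Cd109 and below it for Gnai1, Nectin3 and Galnt3.

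In the MEFs deficient in Ezh2 alone, 1 of the 17 probe sets passed the threshold. None was called higher and 1 lower, beside 0.986% and 2.15% of all probe sets. At an unadjusted limma p below 0.05, 1 was higher, that of Gng3, and 1 lower. Cd109 read 9.43, 9.62 and 9.63 in the Ezh2-deficient MEFs, against 9.83, 10.09 and 9.93 in their wild-type set (-0.39, SE 0.0819, adjusted p = 0.0359). The groups did not overlap, but the call was lost in 6 of the 9 fits that left out 1 array, without wild-type array 2 or 3, Ezh2-deficient array 1 or 3, or Snf5 Ezh2-deficient array 1 or 3, with adjusted p up to 0.130. Pmp22 read 10.16, 9.98 and 10.08 against 9.89, 10.08 and 9.80 in the wild-type set (0.16, adjusted p = 0.348), and Gstt3 read 6.77, 6.74 and 6.71 against 6.91, 6.72 and 6.83 (-0.08, adjusted p = 0.431). Both overlapped with their controls. Gng3 had the smallest adjusted p of the others, 0.0949, with 6.48, 6.56 and 6.64 against 6.43, 6.32 and 6.36 in the wild-type set, groups that did not overlap.

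The 2 mutant lines differed for the same genes. Relative to the Ezh2-deficient MEFs, 3 probe sets were higher and 8 lower in the Snf5 Ezh2-deficient MEFs, beside 14.6% and 12.7% of all probe sets. The 8 lower ones belong to only 3 genes. Cd109 was higher by 1.12 (SE 0.0819, adjusted p = 1.39e-05), Gstt3 by 0.74 (adjusted p = 2.78e-05) and Pmp22 by 0.64 (adjusted p = 8.37e-04). Both mutant lines were compared through the same wild-type hybridisations, so these differences rest on the offset between the 2 sets, whose error the fit leaves out.

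**Figure D5:**
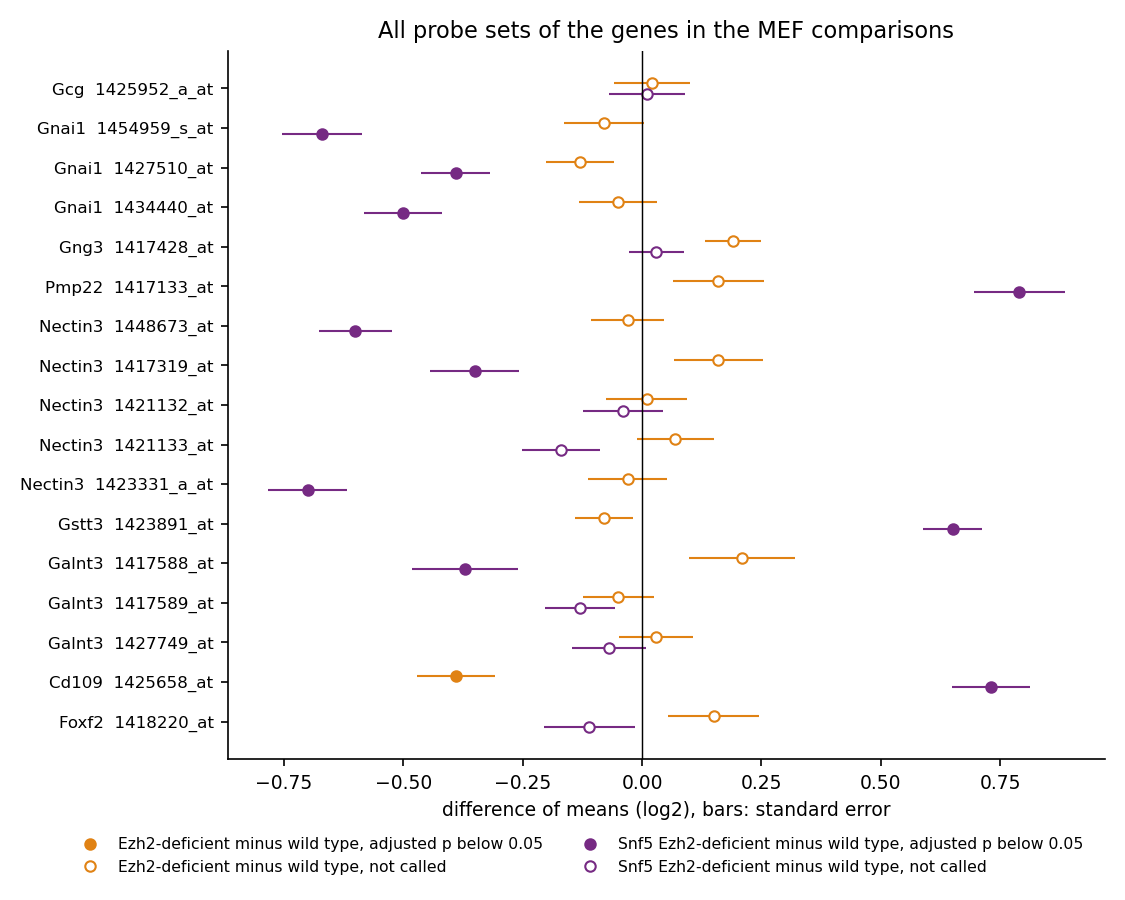
Log2 difference of means with its standard error for all 17 probe sets, in Ezh2-deficient (orange) and Snf5 Ezh2-deficient (purple) minus wild-type MEFs of the same set, with filled points for an adjusted p below 0.05. The filled purple points lie right of 0 for Pmp22, Gstt3 and Cd109 and left of 0 for Gnai1, Nectin3 and 1 Galnt3 probe set, and the single filled orange point is Cd109.

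About as many relatives of the 9 genes were lower as were higher in the lymphomas. Over 8 lists of related genes with 166 measured members, without the 9 genes, 15 were higher and 18 lower in the lymphomas, beside 9.13% and 7.71% of all genes. Without wild-type arrays 1 and 6 the counts were 26 and 28, beside 13.2% and 13.2% of all genes. Leaving out 1 array at a time moved the count of a single list by at most 2 genes, and the totals to 11 to 19 higher and 15 to 22 lower. The 21 called relatives named below kept their direction and their call without wild-type arrays 1 and 6, and the fold of 6 moved by over 1.5 times: the log2 difference was then 3.89 for Gnat2, 5.84 for Perp, 1.44 for Crtam, 5.54 for Gstt1, -5.18 for Smad7 and 4.18 for Hc.

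For Gcg, 1 of 25 islet and enteroendocrine genes was higher and none lower in the lymphomas (2 and 2 at an unadjusted limma p below 0.05), and 2 were higher and 3 lower without arrays 1 and 6. The 1 was Scg3, which encodes a protein of secretory granules (2.87, SE 0.625, adjusted p = 0.0112). Of 25 G protein subunit genes, 2 were higher and 3 lower (5 and 4 without those arrays). Gnat2, the alpha subunit of cone photoreceptors, rose (3.08, adjusted p = 0.00473), as did the beta subunit gene Gnb5 (2.60, adjusted p = 0.00134), and Gna15, an alpha subunit of blood cells, fell (-1.81, adjusted p = 0.00104).

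Of 15 genes of the PMP22 family and of Schwann cell myelin, 2 were higher and 2 lower (3 and 4 without arrays 1 and 6). Perp, a tetraspan relative of Pmp22, rose (4.26, adjusted p = 0.0309), but the call was lost without wild-type array 2, 3 or 4 or lymphoma 1, 3, 4 or 5, with adjusted p up to 0.0771. Egr2, a transcription factor of Schwann cells that T cells also induce, rose (1.59, adjusted p = 0.00528), and the myelin gene Mbp fell (-2.19, adjusted p = 0.00197). Of 14 nectin-related genes, 1 was higher and 1 lower (2 and 2 without those arrays). Cdh1, E-cadherin, fell (-3.59, adjusted p = 0.00501). Crtam, a receptor of T cells that binds a nectin-like protein, rose (2.38, adjusted p = 0.0324), a call lost without wild-type array 5 or any 1 lymphoma, with adjusted p up to 0.0804.

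Of 23 glutathione genes, 3 were higher and 3 lower (5 and 4 without arrays 1 and 6). The theta-class genes Gstt1 (4.68, SE 0.568, adjusted p = 5.44e-04) and Gstt2 (2.35, SE 0.243, adjusted p = 2.20e-04) rose, and the microsomal transferase gene Mgst2 fell (-3.94, SE 0.306, adjusted p = 3.36e-05). Gstt1 averaged 12.22 ± 0.265 in the lymphomas and 7.54 in the wild-type cells, and its call held without any 1 array.

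Of 18 O-glycosylation genes, 2 were higher and 3 lower (3 and 4 without arrays 1 and 6). The sialyltransferase gene St6galnac3 fell (-3.23, adjusted p = 0.00118), as did Galnt10, a relative of Galnt3 (-2.21, adjusted p = 0.00251), and St3gal1 (-2.18, adjusted p = 0.0224), whose call was lost without lymphoma 1, 3, 4 or 5 (adjusted p up to 0.0600). Of 17 genes of thioester proteins and TGF-beta signalling, 2 were higher and 5 lower (3 and 5 without those arrays). The receptor gene Tgfbr1 (-2.51, SE 0.162, adjusted p = 1.15e-05) and the inhibitor gene Smad7 (-4.19, adjusted p = 0.00558) fell. Hc, complement component C5, rose (3.02, adjusted p = 0.0297), a call lost without wild-type array 2, 3, 4 or 5 or lymphoma 1, 3 or 5 (adjusted p up to 0.0745). Of 30 forkhead genes, 2 were higher and 1 lower (3 and 3 without those arrays): Foxa3 rose (1.54, adjusted p = 0.00557), Foxo3 fell (-1.20, adjusted p = 0.00369), and Foxj1 (1.14, adjusted p = 0.0311) lost its call without wild-type array 2, 3 or 5 or lymphoma 1, 3 or 5 (adjusted p up to 0.0775).

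Markers of cell types, among them those in which most of the 9 genes are better known, were also read. Over 9 marker lists with 99 measured genes, 6 were higher and 8 lower in the lymphomas, beside 9.13% and 7.71% of all genes. Without wild-type arrays 1 and 6, 16 were higher and 12 lower, beside 13.2% and 13.2% of all genes. Of 12 neuronal markers, 5 were higher and none lower (6 and 0 at an unadjusted limma p below 0.05, and 5 and 0 without arrays 1 and 6), with Snap25 (4.49, adjusted p = 0.00226), Eno2 (3.09, adjusted p = 8.80e-04) and Nefl (3.13, adjusted p = 0.0324) the largest. Without arrays 1 and 6 the differences of these genes were 5.48, 3.61 and 4.05. The count of 5 was 3 without any 1 of wild-type arrays 2 to 5 or without lymphoma 3 or 4. The Nefl call was lost without any 1 of wild-type arrays 2 to 5 or lymphomas 2 to 4, with adjusted p up to 0.0819. The summed neuronal intensity was 4894 to 9532 in the lymphomas, against 587 to 1767 in the wild-type cells. Eno2, the brightest of the 12 on every T cell array, weighs most in this sum. It read 11.36 to 12.48 in the lymphomas, against 7.44 to 9.97 in the wild-type cells. Syt1, Stmn2, Gap43 and Rbfox3 stayed in the lowest 25% of values on every lymphoma array.

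Of 13 epithelial markers, 1 was higher and 2 lower (2 and 2 without arrays 1 and 6). The lower ones were Cdh1 (-3.59, adjusted p = 0.00501) and Ly75 (-1.65, adjusted p = 0.00573), and the higher one was Epcam. Epcam read 11.06, 11.98, 12.34, 13.03 and 11.51 in the lymphomas, against 7.20 to 9.77 in the wild-type cells (3.82, adjusted p = 0.00157, and 4.60 without those arrays), while the keratin gene Krt14 and Cldn4 stayed in the lowest 25% on all T cell arrays. The epithelial sum was 3885 to 11048 in the lymphomas, against 4425 to 5604 in the wild-type cells. It includes Epcam and ranked the tumours in the same order as Epcam did. Of 15 fibroblast and stromal markers none was higher and 1 lower (1 and 0 without those arrays), with a sum of 6837 to 13952 in the lymphomas against 10103 to 13785 in the wild-type cells. Of 8 Schwann cell markers none was higher and 1 lower (0 and 3 without arrays 1 and 6), and of 12 endothelial markers none was higher and 1, Eng, lower (-2.06, adjusted p = 0.00546). Of 7 erythroid markers none was higher and 1 lower. The endothelial and erythroid counts were 0 and 1 each without arrays 1 and 6. Of 13 myeloid markers none was called either way, and 8 were higher and 0 lower without wild-type arrays 1 and 6. Of 9 B cell markers none was higher and Cd79b was lower (-4.01, adjusted p = 9.58e-04), and without those arrays 0 were higher and 4 lower, with -3.37 for Cd79b. Of 11 T cell markers only Cd2 was lower (-4.05, adjusted p = 0.0102), and none was higher, with counts of 1 and 0 without those arrays too. At an unadjusted limma p below 0.05, 2 fibroblast, 1 erythroid and 3 myeloid markers were higher and 1 myeloid marker lower, and 0 of the Schwann cell, endothelial, B cell and T cell markers were higher.

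In the MEFs the related genes moved in both directions. In the Snf5 Ezh2-deficient MEFs 23 of the 166 were higher and 21 lower, beside 13.2% and 14.3% of all genes. Among them Gstm1, a mu-class glutathione transferase, rose (1.10, adjusted p = 5.83e-05) and the microsomal Mgst1 fell (-1.29, adjusted p = 4.88e-04). The gamma subunit gene Gng11 fell (-1.60, adjusted p = 4.56e-05), as did Emp2, of the PMP22 family (-0.89, adjusted p = 8.72e-05), and the nectin relative Pvr (-0.96, adjusted p = 7.80e-05). Galnt10 rose (0.82, adjusted p = 9.27e-04), the growth factor gene Tgfb3 rose (0.98, adjusted p = 3.80e-04) and Tgfb1 fell (-0.71, adjusted p = 3.47e-04). Foxc2, a mesenchymal forkhead gene, fell (-0.69, adjusted p = 7.25e-04), and the hormone gene Cck fell (-1.05, adjusted p = 1.53e-04).

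In the Ezh2-deficient MEFs 5 of the 166 related genes were higher and 4 lower, beside 1.02% and 2.47% of all genes. The gamma subunit gene Gng10 (-0.60, adjusted p = 0.00367) and Galnt11 (-0.84, adjusted p = 0.00914) fell and kept their calls without any 1 array. The 5 higher genes fell to 0 without Ezh2-deficient array 1 or wild-type array 2 or 3, to 2 without wild-type array 1, and to 3 without Snf5 Ezh2-deficient array 1 or Ezh2-deficient array 3. The 4 lower ones fell to 2 without Ezh2-deficient array 1 or wild-type array 2 or 3.

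The 9 genes lie on 8 chromosomes, and the nearest measured gene on each side was read to see whether neighbours moved with them. Gene order came from RefSeq. Of 18 neighbours, 4 were higher in the lymphomas, none was lower and 14 were not called, with a median difference of -0.04, beside 9.13% of all genes higher and 7.71% lower. Without wild-type arrays 1 and 6, 3 were higher and 0 lower, and 2 were higher without any 1 of wild-type arrays 2, 3 and 5 or of lymphomas 1 and 4. At an unadjusted limma p below 0.05, 6 were higher and 0 lower. Both neighbours of Gstt3 rose: Gstt1, as above, and Ddt, which encodes a relative of the cytokine MIF (1.56, adjusted p = 0.00120). These calls held without any 1 array. In the Snf5 Ezh2-deficient MEFs both genes rose as well (0.62 for Gstt1, adjusted p = 3.28e-04, and 0.48 for Ddt, adjusted p = 8.11e-04). The other neighbours called in those MEFs did not follow their member. Bscl2 rose beside Gng3, which was not called (1.75, adjusted p = 1.72e-06), and Col12a1 fell beside Cd109, which rose (-0.86, adjusted p = 0.00661). Scn2a rose beside Galnt3, which fell (0.30, adjusted p = 0.0240), and Foxc1 rose beside Foxf2, which was not called (0.33, adjusted p = 0.0486). Scn1a, a sodium channel gene beside Galnt3 (3.09, adjusted p = 0.0385, and 4.33 without arrays 1 and 6), lost its call without any 1 of wild-type arrays 2 to 5 or of the lymphomas, with adjusted p up to 0.0901. Fap, a protease gene beside Gcg (2.30, adjusted p = 0.0457), lost it without any 1 wild-type array or lymphoma 1 or 4, with adjusted p up to 0.0968, and also without both arrays 1 and 6 (adjusted p = 0.0546). Foxq1 and Foxc1, the forkhead genes beside Foxf2, differed by -0.35 and 0.37 in the lymphomas and were not called there.

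The genes whose levels followed each member most closely over the 11 T cell arrays were also listed, by Pearson's r of log2 values as a description. The arrays share the contrast of 2 groups and the position of wild-type arrays 1 and 6, which by themselves give high values. Tnfrsf9, a co-stimulatory receptor gene, was among the 2 closest for Gnai1 (0.995), Gng3 (0.994) and Gstt3 (0.994), and Yap1, a transcriptional co-activator gene, for Gnai1 (0.995), Nectin3 (0.994) and Gstt3 (0.995). Within the set, Gstt3 was among the 2 closest to Nectin3 (0.991), Gng3 was the closest to Galnt3 (0.990), and Pmp22 was among the 2 closest to Cd109 (0.978). Gcg followed none of the others so closely, with Cbwd1 (0.974) and Rnft1 (0.971) nearest to it.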

How the data were processed

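Per the labels' protocols, total RNA was extracted with Trizol and a column kit and hybridised to Affymetrix 430A arrays, and the authors summarised the scans by RMA. Their deposited intensity values proved to be linear, not log2 as the planned design assumed, and log2 was taken here. They fell into 3 separately summarised blocks of 6, 6 and 11 arrays. The sources used here name no version of RMA. Depth does not apply to arrays, whose number and spread limit precision: standard errors had a median of 0.236 in the T cell and 0.0771 in the MEF comparisons. Whether replicates came from separate cultures or animals is only implied by the labels' word biological, and p-values measure the spread between these arrays.

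The 64 control probe sets were left out. The wild-type arrays of both MEF sets were the same hybridisations: over probe sets with a mean log2 above 9, arrays of the same number differed by an SD of 0.0266 to 0.0287 after an offset, against 0.141 to 0.163 for different numbers. They were counted once, with the second set moved by the offset of the control means, which left 9 distinct MEF arrays and 6 residual degrees of freedom. The 11 T cell arrays left 9. Fits used lmFit and eBayes of limma 3.58.1 (R 4.3.3). P-values were adjusted by Benjamini-Hochberg over 22626 probe sets, and calls needed an adjusted p below 0.05. Genes were counted through the probe set with the highest mean log2 over all 23 arrays. Steps were tested on simulated data.

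The members, the 17 gene lists and the alternatives were chosen with earlier results of these data known. Named were all members, Smarcb1 and Ezh2, up to 3 called genes of a list with the largest change in the lymphomas and up to 2 per MEF comparison, the 2 genes most alike to each member, and its 2 neighbours. Cd8a, Krt14 and other markers outside that rule were named after their values were seen. Alternatives were another scale, log2(value + 16), median centring, a second quantile normalization, an intensity trend, the dimmest 25% of probe sets left out, own-set fits, the replicate block, the median over probe sets, each array left out and, added after seeing the data, wild-type CD8 arrays 1 and 6 left out. Promoter windows came from RefSeq, build GRCm38.p6. The files name no build, so no coordinates other than those of these windows are given.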

Additional observations from a re-analysis of the deposited data

Results flagged for a closer look

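The 2 mutant MEF lines differed for 11 probe sets in a test of the difference itself. Values are Snf5 Ezh2-deficient minus Ezh2-deficient MEFs in log2, with limma's adjusted p. Positive were 3: Cd109 1425658_at with 1.12, Gstt3 1423891_at with 0.74 and Pmp22 1417133_at with 0.64. The 3 Gnai1 probe sets 1454959_s_at, 1434440_at and 1427510_at had -0.59 (adjusted p = 5.85e-04), -0.45 (0.00259) and -0.27 (0.0202). The Nectin3 probe sets 1423331_a_at, 1448673_at, 1417319_at and 1421133_at had -0.68 (adjusted p = 2.56e-04), -0.57 (4.18e-04), -0.51 (0.00262) and -0.24 (0.0485). Galnt3 1417588_at had -0.58 (adjusted p = 0.00350). Among the smallest, the call of Gnai1 1427510_at was lost without Ezh2-deficient array 1 or 3 or Snf5 Ezh2-deficient array 3. That of Nectin3 1421133_at was lost without wild-type array 2 or 3, any 1 Ezh2-deficient array, or Snf5 Ezh2-deficient array 1 or 3. In the T cell groups, 34 tests for a single outlying array among the 17 probe sets found 0. Such a test can miss 2 arrays that stand apart together, as wild-type CD8 arrays 1 and 6 did, so it says nothing about them.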

How the results depend on the processing

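In 12 of the MEF results on single probe sets 28 alternative values turned their sign, none of them called there or as reported, with the smallest adjusted p 0.544. With a second quantile normalization these were, in Ezh2-deficient minus wild-type MEFs, -0.01 for Gcg, 0.00 for Gnai1 1434440_at, 0.02 for Nectin3 1448673_at and 1423331_a_at, -0.06 for Nectin3 1421132_at and -0.03 for Galnt3 1427749_at. With the same setting they were 0.00 for Gng3 in Snf5 Ezh2-deficient minus wild-type MEFs and 0.01 for Gcg and Nectin3 1421132_at between the mutant lines, and median centring gave -0.01 for Gcg in Snf5 Ezh2-deficient minus wild-type MEFs. Without single arrays, Ezh2-deficient minus wild-type differences ran from -0.05 to 0.08 for Gcg, -0.10 to 0.05 for Nectin3 1448673_at, -0.03 to 0.04 for 1421132_at, -0.08 to 0.07 for 1423331_a_at and -0.02 to 0.12 for Galnt3 1427749_at. Those of Snf5 Ezh2-deficient minus wild-type MEFs ran from -0.03 to 0.07 for Gcg, -0.13 to 0.04 for Nectin3 1421132_at and -0.12 to 0.01 for Galnt3 1427749_at, and those between the mutant lines from -0.07 to 0.06 for Gcg and -0.14 to 0.03 for Nectin3 1421132_at. No difference of a member probe set in the lymphomas turned its sign, as the rule that chose the genes favours. The count of member probe sets lower in Ezh2-deficient MEFs, 1 as reported, was 0 with a second quantile normalization and 0 with the own set only, and 0 to 1 without single arrays. Without wild-type CD8 arrays 1 and 6, the median member difference was 5.75, the related genes 26 higher and 28 lower, and the markers 16 higher in the lymphomas. With the median over the probe sets of a gene, 11 related genes and 5 markers were lower in the lymphomas. Related genes higher in Ezh2-deficient MEFs numbered 2 with the own set only and 0 to 6 without single arrays, and lower ones 2 to 5. Neighbours higher in the lymphomas numbered 2 to 3 without single arrays. Same-numbered arrays correlated by 0.08 to 0.31 in the T cell groups. The range was -0.03 to 0.15 for Ezh2-deficient and wild-type MEFs and -0.04 to 0.03 for Snf5 Ezh2-deficient and wild-type MEFs. In that order, 3 of 5, 2 of 3 and 1 of 3 arrays correlated best with their own number. So few arrays cannot decide whether the numbers pair the samples, and the reported fits left them unpaired. With the replicate number as a block, 2 related genes were higher in Ezh2-deficient MEFs, 3 and 7 member probe sets were higher and lower in the Snf5 Ezh2-deficient MEFs, and the median lymphoma difference was 5.27. The cause of these shifts was not tested. Values near the floor of RMA, as for Gcg in MEFs or Gstt3 on wild-type CD8 arrays 2 to 5, carry no detection call.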
